A study of Oryza sativa Japonica Group with 6 samples.

Results

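Chlorophyll synthesis was followed through 9 rice loci that carry the branch of tetrapyrrole metabolism from protoporphyrin IX to chlorophylls a and b: OsChlH, OsChlI, OsChlD, OsCRD1, OsDVR, OsPORA, OsPORB, YGL1 and OsCAO1. They were chosen by locus identifier, and kept if their RPKM (reads per kilobase of gene, scaled to the reads of the library) reached 1 in at least 2 of 6 libraries. All 9 of the 9 listed loci were in the authors' table of 55800 loci, all 9 passed, and 19438 loci passed in all. In each case the description in the table, a best protein match, named the listed enzyme or subunit. OsPORA passed through its 13 °C libraries only and was below 1 RPKM elsewhere, so a difference between 13 °C and the other temperatures was built into its selection.

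The libraries were made from total RNA of stems and leaves, the aboveground part, of 2-week-old seedlings of the japonica cultivar Lijiangxintuanheigu. Seedlings were held for 24 h at 11 °C, 13 °C or 25 °C, with 2 biological replicates per temperature by the series design. All groups share the cultivar, age and tissue, and the hour of collection is not given in the sources used here. Recovered library totals ranged from 15.96 to 18.75 M reads. Leaf genes were present at each temperature (RbcS2, a Rubisco small subunit, had 3224 to 10520 RPKM over the 6 libraries). The root silicon channel OsLsi1 had 0.814 and 0.668 RPKM at 11 °C, 11.9 and 10.9 RPKM at 13 °C, and 18.1 and 12.9 RPKM at 25 °C. The root marker OsLsi2 and the meristem marker OSH1 were listed at 0, but they stand under upper-case identifiers, a class of 23650 loci that has no value above 0 in any replicate 2 library. In such bulk shoot samples, fewer cells of a type and less RNA per cell cannot be told apart.

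Chlorophyll is built in plastids from glutamate by way of 5-aminolevulinic acid and a porphyrin ring. At protoporphyrin IX the route divides: magnesium chelatase leads to chlorophyll, and ferrochelatase leads to heme and the bilins. Because several intermediates are phototoxic, the early step and the chelatase are tightly controlled, and in grasses the greening of young leaves is sensitive to chilling.

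At 11 °C against 25 °C, the 9 transcripts divided into 5 that were higher and 4 that were lower, and all 9 passed the test (limma on log2(RPKM + 1), Benjamini-Hochberg adjusted p below 0.05 over all tested loci). Higher were OsChlI, OsChlD, OsPORA, OsPORB and YGL1, and lower were OsChlH, OsCRD1, OsDVR and OsCAO1. Over all 19438 loci, 28.6% were called higher and 21.4% lower in this comparison, or 50.0% in either direction. The median log2 change of the members was 0.81, beside 0.13 over all tested loci. Without OsPORA, 4 were higher and 4 lower, with a median of -0.27.

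**Figure D1:**
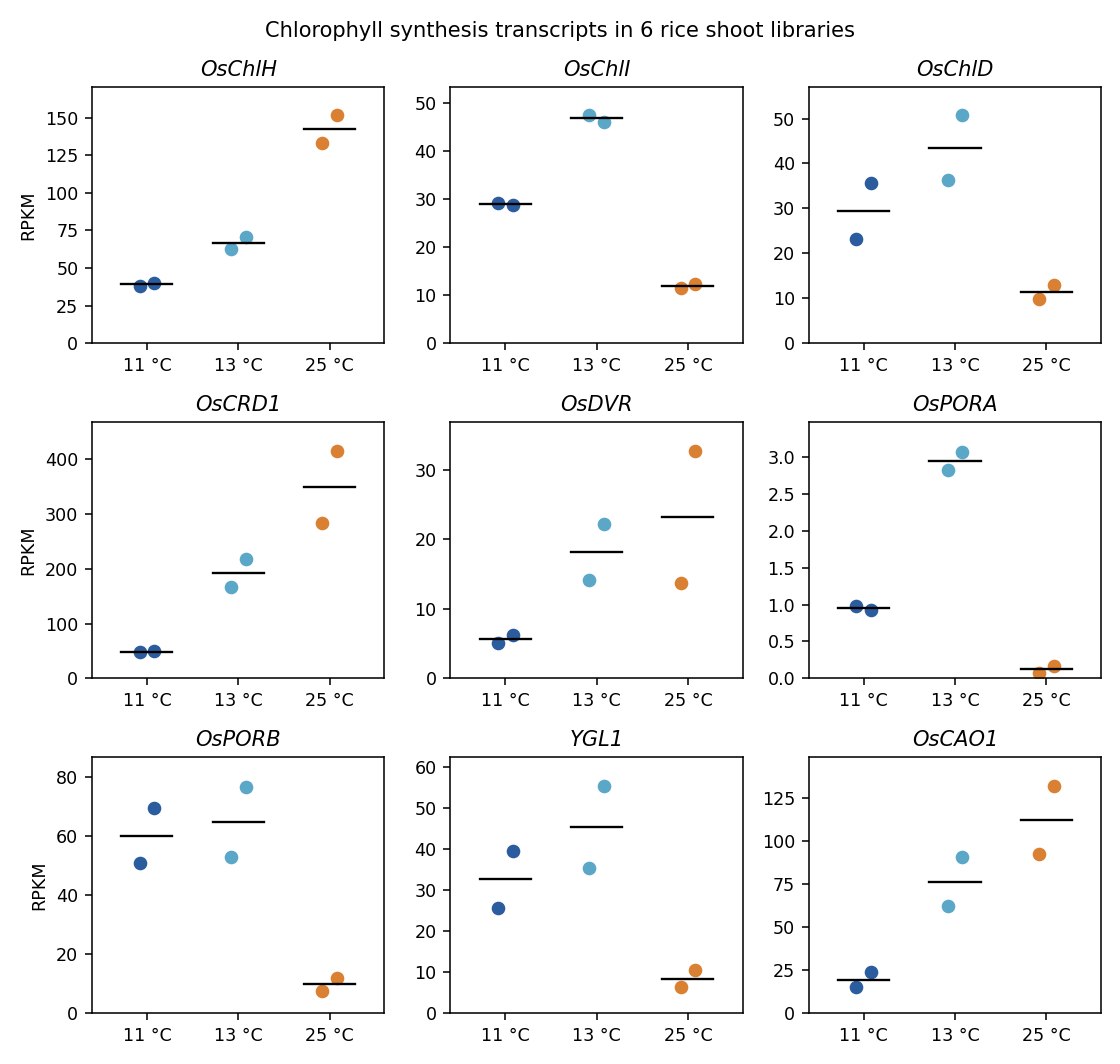
RPKM of the 9 chlorophyll synthesis transcripts in each library at 11, 13 and 25 °C, 1 panel per gene with its own scale; points are libraries (replicate 1 left, replicate 2 right) and horizontal lines are means of 2. OsChlH, OsCRD1 and OsCAO1 are lowest at 11 °C and highest at 25 °C, while OsChlI, OsChlD, OsPORA, OsPORB and YGL1 are lowest at 25 °C.

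The subunits of magnesium chelatase, which inserts magnesium into protoporphyrin IX, took opposite directions. OsChlH (LOC_Os03g20700, chromosome 3, 11712169 to 11720131), the large subunit that binds the porphyrin, had 38.3 and 40.3 RPKM at 11 °C, 62.9 and 70.8 RPKM at 13 °C, and 133 and 152 RPKM at 25 °C. The temperatures did not overlap, and the level was lower at each colder temperature. Its mean was 3.63-fold lower at 11 °C than at 25 °C (log2 change -1.83 ± 0.20 standard error, limma adjusted p = 0.000239) and 2.13-fold lower at 13 °C than at 25 °C (-1.08 ± 0.20, adjusted p = 0.00358).

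OsChlI (LOC_Os03g36540, chromosome 3, 20247674 to 20250146) encodes the smaller ATPase subunit of the chelatase. It had 29.1 and 28.7 RPKM at 11 °C, 47.5 and 46.1 RPKM at 13 °C, and 11.5 and 12.3 RPKM at 25 °C. All 4 low-temperature libraries were above both 25 °C libraries, and 13 °C was the highest. Its log2 change was 1.22 ± 0.20 at 11 °C (adjusted p = 0.00155) and 1.89 ± 0.20 at 13 °C (adjusted p = 0.000245), both against 25 °C in limma.

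OsChlD (LOC_Os03g59640, chromosome 3, 33955198 to 33961962), the subunit that pairs with ChlI in the motor complex, followed the same order of temperatures. It had 23.1 and 35.6 RPKM at 11 °C, 36.4 and 50.7 RPKM at 13 °C, and 9.92 and 12.9 RPKM at 25 °C. The temperatures did not overlap, although the higher 11 °C library came close to the lower 13 °C library. Its mean was 2.58-fold higher at 11 °C than at 25 °C (log2 change 1.27 ± 0.29, limma adjusted p = 0.00746) and 3.82-fold higher at 13 °C than at 25 °C. The call at 11 °C was lost without replicate 2 at 11 °C (adjusted p = 0.056).

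Read per length, the chelatase transcripts stood in a different proportion at the low temperatures than at 25 °C. The ratio of OsChlH to OsChlI was 1.32 and 1.40 at 11 °C and 1.33 and 1.54 at 13 °C, while the 25 °C libraries had 11.6 and 12.4. The ratio of OsChlH to OsChlD was 1.66 and 1.13 at 11 °C and 1.73 and 1.40 at 13 °C, while the 25 °C libraries had 13.4 and 11.8. Both ratios were near the same value in the 4 low-temperature libraries and many times higher at 25 °C. The ratio of OsChlI to OsChlD stayed between 0.807 and 1.31 over all 6 libraries. With 2 libraries a temperature, these ratios are given without a test.

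**Figure D2:**
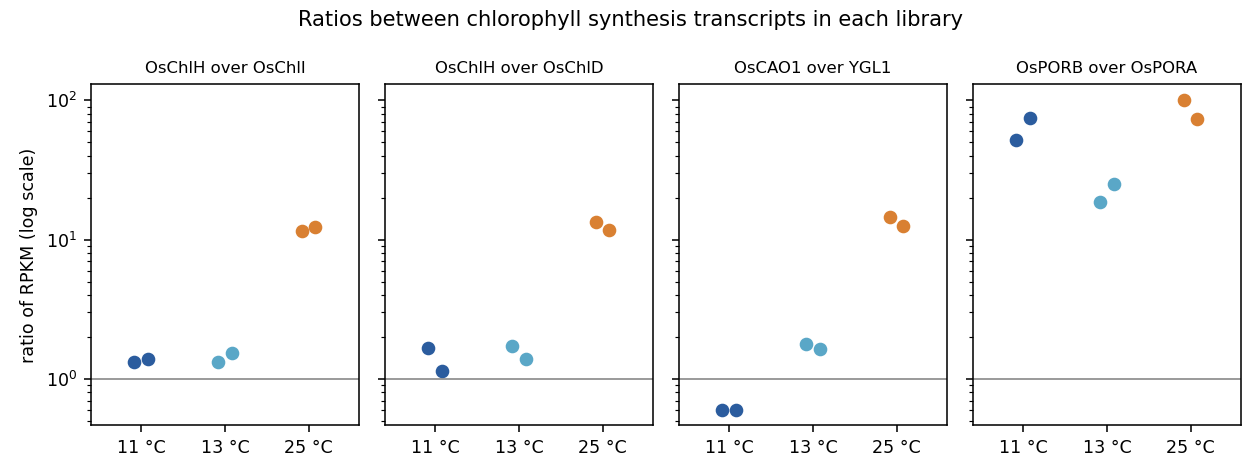
Ratios of RPKM between members in each of the 6 libraries, by temperature, on a log axis; the grey line marks equal levels. OsChlH over OsChlI and over OsChlD lies between 1.13 and 1.73 at 11 and 13 °C and above 11 at 25 °C, and OsCAO1 over YGL1 is below 1 at 11 °C only.

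After magnesium insertion, the ring is methylated and closed, and its vinyl group at position 8 is reduced; both measured members of these later ring steps were lower at 11 °C. OsCRD1 (LOC_Os01g17170, chromosome 1, 9874326 to 9876951) encodes a subunit of the cyclase that forms the fifth ring. It had 47.5 and 49.2 RPKM at 11 °C, 167 and 217 RPKM at 13 °C, and 284 and 415 RPKM at 25 °C. It had the highest mean of the 9 at 13 °C and at 25 °C, and its temperatures did not overlap. Its mean was 7.24-fold lower at 11 °C than at 25 °C (log2 change -2.80 ± 0.26, limma adjusted p = 0.000107). The change at 13 °C against 25 °C was -0.85 ± 0.26 (limma adjusted p = 0.0302), and this call was lost with no filter (0.0696). It was also lost without either replicate at 11 °C, where the change stayed -0.85. The same held without replicate 1 or 2 at 13 °C (-0.66 and -1.035) and without replicate 2 at 25 °C (-0.57).

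OsDVR (LOC_Os03g22780, chromosome 3, 13155800 to 13157404) encodes the divinyl reductase that removes the 8-vinyl group. It had 5.05 and 6.25 RPKM at 11 °C, 14.1 and 22.1 RPKM at 13 °C, and 13.7 and 32.7 RPKM at 25 °C. Both 11 °C libraries were below the other 4, while 13 and 25 °C overlapped. Its 25 °C replicates, with 351 and 963 reads, were further apart for their mean than those of any other member (SD of 57.9% of the mean). The log2 change was -1.75 ± 0.40 at 11 °C against 25 °C (limma adjusted p = 0.00804). It was -2.35 when 25 °C lost replicate 1 and -1.15 when it lost replicate 2 (adjusted p = 0.0396), so its size rests on the 25 °C libraries. At 13 °C against 25 °C it was -0.25 with a 95% interval of -1.18 to 0.68 (adjusted p = 0.654), and the replicates 1 differed by 0.04 and the replicates 2 by -0.54.

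A second locus described as a divinyl reductase, LOC_Os02g04510, had 5.49 and 8.49 RPKM at 11 °C, 15.5 and 22.5 RPKM at 13 °C, and 87.8 and 107 RPKM at 25 °C. It was 13.9-fold lower at 11 °C (log2 change -3.64 ± 0.28, limma adjusted p = 5.35e-05) and 5.13-fold lower at 13 °C than at 25 °C. Per length it was thus above OsDVR in all 6 libraries, narrowly at 11 and 13 °C and widely at 25 °C.

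The reduction of protochlorophyllide to chlorophyllide, which in flowering plants needs light, was represented by OsPORA and OsPORB, and both transcripts were lowest at 25 °C. OsPORB (LOC_Os10g35370, chromosome 10, 18900290 to 18904022), the isoform known in rice to act in green leaves, had 50.8 and 69.4 RPKM at 11 °C, 52.9 and 76.7 RPKM at 13 °C, and 7.55 and 12.01 RPKM at 25 °C. The 2 low temperatures overlapped, and both were above 25 °C. Its mean was 6.14-fold higher at 11 °C (log2 change 2.52 ± 0.30, limma adjusted p = 0.000348) and 6.63-fold higher at 13 °C (2.62 ± 0.30, adjusted p = 0.000369) than at 25 °C. At 11 °C it had the highest mean of the 9, and at 25 °C the seventh.

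OsPORA (LOC_Os04g58200, chromosome 4, 34663055 to 34664723), the isoform best known from dark-grown seedlings, was near the limit of detection. It had 0.986 and 0.927 RPKM at 11 °C (28 and 29 reads), 2.83 and 3.07 RPKM at 13 °C (80 and 96 reads), and 0.0751 and 0.163 RPKM at 25 °C (2 and 5 reads). The temperatures did not overlap. Its log2 change was 0.81 ± 0.18 at 11 °C against 25 °C (limma adjusted p = 0.00724), and 2.30 with a pseudocount of 0.1. Summed reads, worked back from RPKM, gave a ratio of 7.81 at 11 °C against 25 °C (95% exact interval 3.56 to 20.3, counting error only). Its differences between 13 °C and the other temperatures are given as levels, with no test, since its 13 °C values brought it past the filter. OsPORB exceeded OsPORA 51.5-fold and 74.9-fold at 11 °C, 18.7-fold and 25.0-fold at 13 °C, and 100.5-fold and 73.6-fold at 25 °C. Every other member had at least 86.0 reads per kilobase in every library.

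The last steps, which attach the isoprenoid tail and turn part of the pigment into chlorophyll b, moved apart. YGL1 (LOC_Os05g28200, chromosome 5, 16512069 to 16517848) encodes chlorophyll synthase, which esterifies chlorophyllide. It had 25.7 and 39.5 RPKM at 11 °C, 35.3 and 55.3 RPKM at 13 °C, and 6.33 and 10.5 RPKM at 25 °C. The low temperatures overlapped and both were above 25 °C. Its mean was 3.86-fold higher at 11 °C (log2 change 1.84 ± 0.34, limma adjusted p = 0.00279) and 5.37-fold higher at 13 °C (2.30 ± 0.34, adjusted p = 0.00112) than at 25 °C.

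OsCAO1 (LOC_Os10g41780, chromosome 10, 22482198 to 22486537) encodes chlorophyllide a oxygenase, the source of chlorophyll b. It had 15.4 and 23.8 RPKM at 11 °C, 62.5 and 90.8 RPKM at 13 °C, and 92.7 and 132 RPKM at 25 °C. The temperatures did not overlap, and 13 °C lay close below 25 °C. Its mean was 5.72-fold lower at 11 °C than at 25 °C (log2 change -2.47 ± 0.31, limma adjusted p = 0.000406). At 13 °C against 25 °C the change was -0.55 with a 95% interval of -1.25 to 0.16 (adjusted p = 0.186), and it passed with the replicate number as a block (adjusted p = 0.00599) and with libraries scaled by trimmed mean ratios (-0.74, adjusted p = 0.0221). The ratio of OsCAO1 to YGL1 was 0.601 and 0.604 at 11 °C and 1.77 and 1.64 at 13 °C, while the 25 °C libraries had 14.6 and 12.5.

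OsCAO1 lies beside 2 more loci described as chlorophyllide a oxygenase, and such copies may share reads. LOC_Os10g41770, on the opposite strand, overlaps it from 22482198 to 22483824, and whether the counting used strand is not given in the sources used here. LOC_Os10g41770 had 2.05 to 3.82 RPKM and LOC_Os10g41760 had 0.523 to 1.95 RPKM over the 6 libraries, so either is far below OsCAO1. Neither passed at 11 °C against 25 °C (log2 changes -0.11 and -0.15, limma adjusted p = 0.772 and 0.591).

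At 13 °C against 25 °C, 4 of the 8 members other than OsPORA were called higher and 2 lower, where 26.3% of all tested loci were higher and 17.0% lower, or 43.3% in either direction. The 4 were OsChlI, OsChlD, OsPORB and YGL1, and the 2 were OsChlH and OsCRD1. With OsPORA, which its 13 °C values selected, the count of higher members was 5 of 9. OsDVR and OsCAO1 did not pass. OsCRD1 lost its call with no filter, which left 1 lower member. Its call was also lost without a replicate at 11 °C, a replicate at 13 °C or replicate 2 at 25 °C. This comparison shares the 25 °C libraries with that at 11 °C, so the 2 sets of calls are not independent of each other. The median over the 8 members was 0.79, beside 0.12 over all tested loci.

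**Figure D3:**
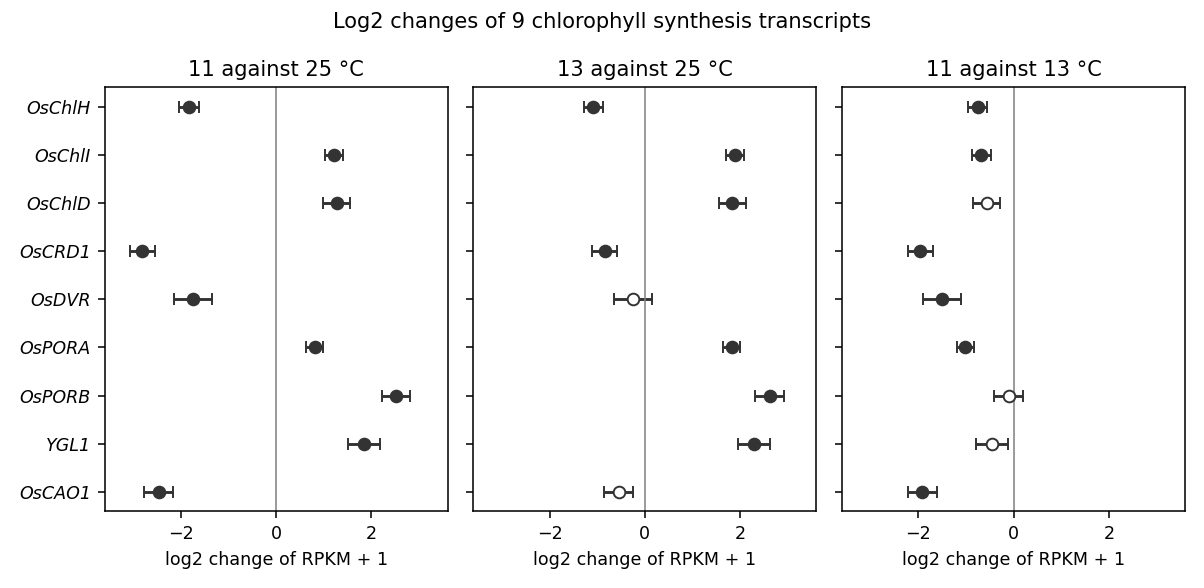
Log2 change of RPKM + 1 of each member in the 3 comparisons; bars are ± 1 standard error of the limma fit over 6 libraries, filled points passed an adjusted p of 0.05 and open points did not. OsPORA was selected by its 13 °C values, so its points in the comparisons with 13 °C are no test. No member lies to the right of 0 at 11 against 13 °C.

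The direct comparison of 11 with 13 °C gave 5 of the 8 members other than OsPORA lower, none higher and 3 not passed (limma), where 18.2% of all tested loci were lower and 17.2% higher, or 35.4% in either direction. The lower ones were OsCRD1 (log2 change -1.96 ± 0.26, adjusted p = 0.00111), OsCAO1 (-1.92 ± 0.31, adjusted p = 0.00244), OsDVR (-1.50 ± 0.40), OsChlH (-0.75 ± 0.20) and OsChlI (-0.68 ± 0.20). With OsPORA, again selected by its 13 °C values, the count was 6 of 9. With no filter that count was 5, since OsDVR then missed the threshold (limma adjusted p = 0.0756). OsCRD1 and OsCAO1 were 3.98-fold and 3.90-fold lower at 11 °C than at 13 °C. OsPORB did not pass, at -0.10 with a 95% interval of -0.80 to 0.60. OsChlD (-0.57, adjusted p = 0.164) and YGL1 (-0.46, adjusted p = 0.328) did not pass, and both did with the replicate number as a block (adjusted p = 0.00731 and 0.0124). OsChlD also passed with trimmed-mean scaling (adjusted p = 0.0438) and with quantile scaling (0.0405). The count of lower members, OsPORA included, was 3 without replicate 1 or 2 at 11 °C or without replicate 2 at 13 °C, since OsChlH and OsChlI, and OsDVR too, then missed the threshold. OsChlH and OsChlI also missed it without replicate 1 at 13 °C (adjusted p = 0.0805 and 0.154). All 9 log2 changes were below 0, so 0 members were higher at an unadjusted p below 0.05.

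The levels of the members, per length, were in a different order at each temperature. At 11 °C the order was OsPORB (60.1 ± 13.1 RPKM, SD, n = 2), OsCRD1 (48.3 ± 1.21), OsChlH, YGL1, OsChlD, OsChlI, OsCAO1, OsDVR and OsPORA, and the neighbours from OsChlH to OsChlI overlapped. At 13 °C it was OsCRD1 (192 ± 35.5 RPKM), OsCAO1, OsChlH, OsPORB, OsChlI, YGL1, OsChlD, OsDVR and OsPORA, with overlap from OsCAO1 to OsPORB and from OsChlI to OsChlD. At 25 °C OsCRD1 (350 ± 92.3 RPKM), OsChlH, OsCAO1 and OsDVR came first, each apart from its neighbours. OsChlI, OsChlD, OsPORB and YGL1 followed between 8.43 and 11.9 RPKM on average, each overlapping the next, and OsPORA was last. The 8 members other than OsPORA averaged from 5.65 to 60.1 RPKM at 11 °C, from 18.1 to 192 RPKM at 13 °C, and from 8.43 to 350 RPKM at 25 °C.

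Across the 6 libraries, the 5 members higher in the cold correlated with each other at a Pearson r of 0.837 to 0.991 on log2(RPKM + 1), and the 4 lower ones at 0.824 to 0.985. Between the sets r ranged from -0.853 to -0.0369. The sets were formed by the direction of change in these same libraries. High r within a set and negative r between sets were thus largely built in, and are no test of shared control. OsPORA, among the 5, also passed the filter only through its libraries at the middle temperature. These r values are descriptions over 6 libraries in 3 groups, which share library and replicate. By the same measure, the 3 described loci most like each member had r of 0.993 to 1.000. They were picked as the highest out of 19438 tested loci, passing over those without a description. For OsCAO1 the first named has rank 2 among all tested loci. After so large a search over 6 libraries, an r near 1 does not show shared control. For OsCRD1 they were a chloroplast fructose-bisphosphate aldolase (LOC_Os12g07210), chlorophyll a-b binding protein 8 (LOC_Os02g10390) and a FAM10 family protein (LOC_Os02g01030). For OsChlH they were an NRT1/PTR family transporter (LOC_Os06g15370), glucuronoxylan 4-O-methyltransferase 1 (LOC_Os11g29780) and a YacP-type protein (LOC_Os03g62610). OsDVR was most like aberrant root formation protein 4 (LOC_Os08g19320), a chloroplast DS12 protein (LOC_Os08g14440) and a cytosolic glyceraldehyde-3-phosphate dehydrogenase (LOC_Os02g38920). OsCAO1 was most like CBL-interacting protein kinase 14 (LOC_Os11g02240), a phenolic glucoside malonyltransferase (LOC_Os02g28170) and an inositol-tetrakisphosphate kinase (LOC_Os03g12840).

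Among the members higher in the cold, OsChlI was most like the sugar transporter SWEET4 (LOC_Os02g19820), a replication protein A subunit (LOC_Os05g02040) and ribosomal protein S7 (LOC_Os05g27940). OsChlD was most like RING-H2 finger protein ATL5 (LOC_Os10g39936), a ribonuclease P subunit (LOC_Os09g37006) and potassium transporter 11 (LOC_Os04g52390). OsPORA was most like an inactive receptor kinase (LOC_Os07g43350), a chloroplast malate dehydrogenase (LOC_Os08g33720) and a lectin receptor kinase (LOC_Os09g16950). OsPORB was most like histone deacetylase HDT2 (LOC_Os01g68104), a tRNA 2-thiolation protein (LOC_Os12g39840) and a mitochondrial carrier (LOC_Os01g51250). YGL1 was most like the kinase D6PKL2 (LOC_Os09g30150), transcription factor LHW (LOC_Os11g06010) and a tesmin-like CXC protein (LOC_Os02g17460). Likeness of profile does not mean a like size of change: D6PKL2 averaged 7.55 RPKM at 11 °C, 7.87 RPKM at 13 °C and 6.38 RPKM at 25 °C.

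The rest of the tetrapyrrole pathway, taken from words in the descriptions, held 37 more loci, of which 33 were tested. At 11 °C against 25 °C, 12 were called higher, 8 lower and 13 did not pass (14 higher and 11 lower with the replicate block), beside 28.6% and 21.4% of all tested loci. At 13 °C against 25 °C, 11 were higher, 6 lower and 16 did not pass (16 higher and 12 lower with the block), beside 26.3% and 17.0%. At 11 °C against 13 °C, 3 were higher and 7 lower (6 higher and 10 lower with the block), beside 17.2% and 18.2%. With libraries scaled by trimmed mean ratios, the split was 12 and 11, 12 and 12, and 5 and 7. The count of higher loci at 11 °C against 25 °C was 6 without replicate 2 at 11 °C, and that at 13 °C against 25 °C was 5 without replicate 2 at 13 °C; leaving out replicate 1 at 25 °C gave 7. At 11 °C against 13 °C, 2 were higher and 3 lower when 11 °C lost replicate 1, and 0 and 4 when it lost replicate 2, while 1 and 5 were left when 13 °C lost replicate 1, and 1 and 3 when it lost replicate 2. The list medians were -0.11, 0.02 and -0.09, beside 0.13, 0.12 and -0.02 over all tested loci. These counts include low loci that passed the filter only through the libraries where they were high. Among them are LOC_Os03g59152 (low temperatures), LOC_Os10g41760 (13 °C), and LOC_Os07g46315 and LOC_Os03g59120 (25 °C). Their calls between those temperatures and the rest are no test.

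**Figure D4:**
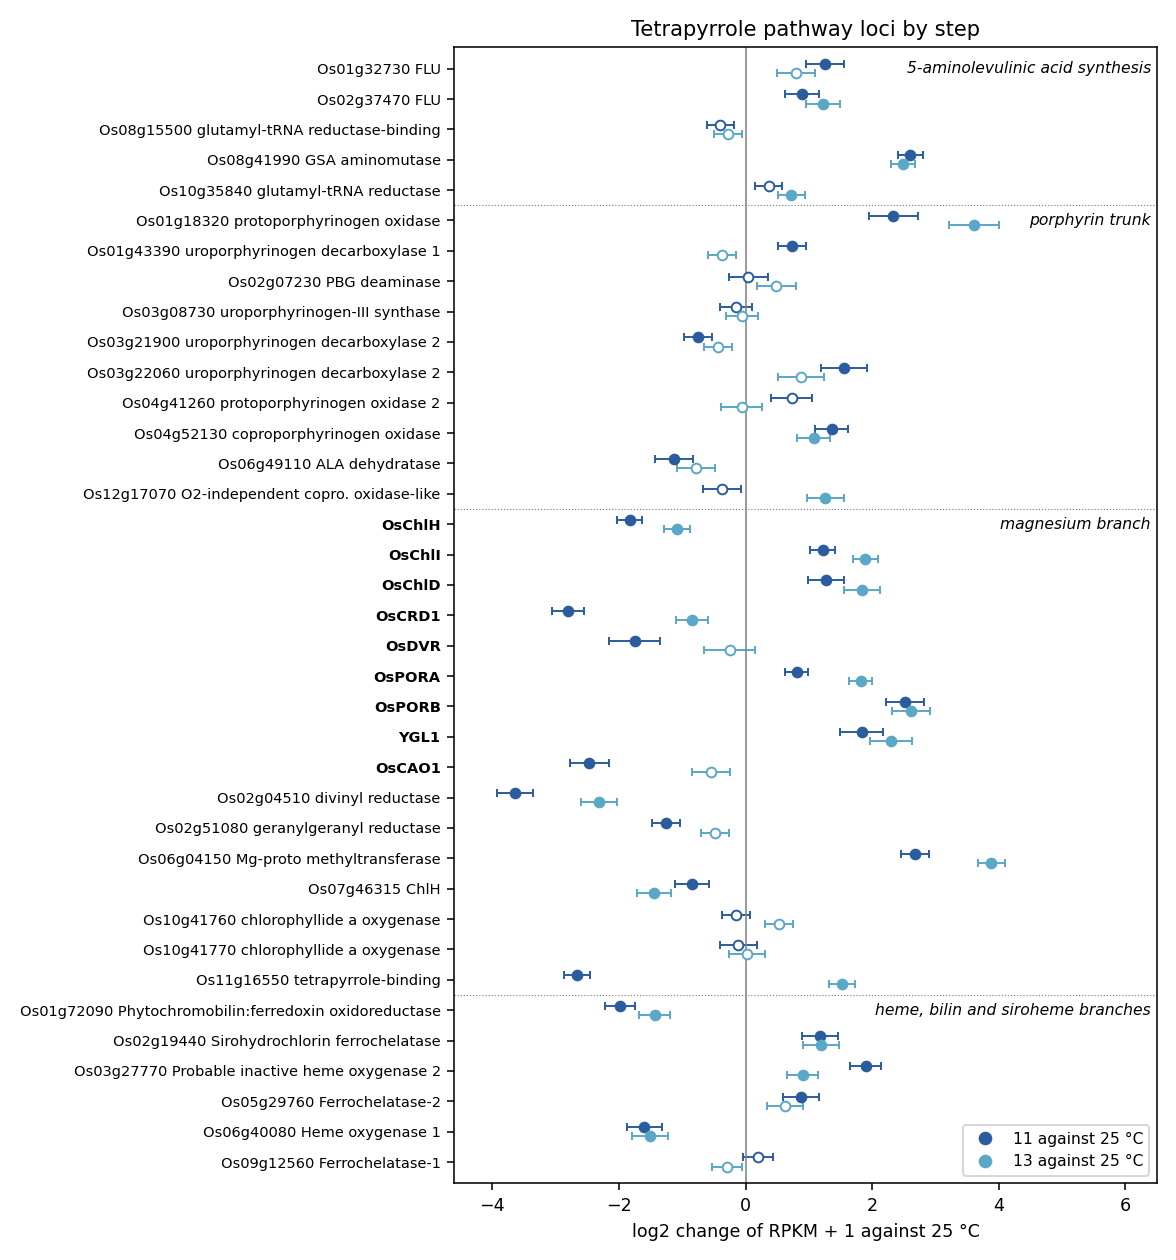
Log2 change of RPKM + 1 at 11 °C (dark) and 13 °C (light) against 25 °C for the tested tetrapyrrole loci other than translocon components, by step, with members in bold; bars are ± 1 standard error and filled points passed an adjusted p of 0.05. The tetrapyrrole-binding protein LOC_Os11g16550 lies at -2.66 at 11 °C and at 1.52 at 13 °C.

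Of 5 tested loci of 5-aminolevulinic acid synthesis, 3 were higher and 2 did not pass at 11 °C against 25 °C (4 higher and 1 lower with the block), where 28.6% of all tested loci were higher. At 13 °C against 25 °C, 3 were higher and 2 did not pass (4 higher with the block), where 26.3% of all tested loci were higher. Glutamate-1-semialdehyde aminomutase (LOC_Os08g41990), which makes 5-aminolevulinic acid, had 114 and 120 RPKM at 11 °C, 112 and 103 RPKM at 13 °C, and 18.3 and 18.5 RPKM at 25 °C. It was 6.36-fold higher at 11 °C and 5.86-fold higher at 13 °C than at 25 °C (limma adjusted p = 4.59e-05 and 6.76e-05). Glutamyl-tRNA reductase (LOC_Os10g35840), the regulated first enzyme, did not pass at 11 °C (log2 change 0.36 ± 0.21, limma adjusted p = 0.19, or 0.0396 with the replicate block) and was higher at 13 °C (0.73 ± 0.21, adjusted p = 0.0263). The 2 loci described as FLUORESCENT IN BLUE LIGHT, which in Arabidopsis restrains that reductase, were both higher at 11 °C, LOC_Os01g32730 by 1.25 ± 0.30 and LOC_Os02g37470 by 0.89 ± 0.27 (log2). At 13 °C LOC_Os01g32730 passed with the block alone (0.79 ± 0.30, limma adjusted p = 0.0629, or 0.00213 with the block). The glutamyl-tRNA reductase-binding protein (LOC_Os08g15500) did not pass at 11 °C (-0.40 ± 0.22, adjusted p = 0.158) and was lower with the block (0.033).

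In the porphyrin trunk, 4 of 10 tested loci were higher, 2 lower and 4 did not pass at 11 °C against 25 °C (5 higher with the block), shares near the 28.6% and 21.4% of all tested loci. Protoporphyrinogen oxidase (LOC_Os01g18320), which makes protoporphyrin IX, had 8.96 and 14.0 RPKM at 11 °C, 22.0 and 36.9 RPKM at 13 °C, and 0.778 and 2.30 RPKM at 25 °C. It was thus highest at 13 °C, with log2 changes of 2.34 ± 0.39 at 11 °C and 3.61 ± 0.39 at 13 °C against 25 °C (limma adjusted p = 0.0018 and 0.00029). Coproporphyrinogen-III oxidase (LOC_Os04g52130) was 2.68-fold higher and 5-aminolevulinic acid dehydratase (LOC_Os06g49110) 2.25-fold lower at 11 °C than at 25 °C. An oxygen-independent coproporphyrinogen oxidase-like locus (LOC_Os12g17070) was called at 13 °C, where it was 3.44-fold higher than at 25 °C.

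Of 7 other tested loci of the magnesium branch, 1 was higher and 4 lower at 11 °C against 25 °C, beside 28.6% and 21.4% of all tested loci. At 13 °C against 25 °C, 2 were higher and 2 lower (3 and 3 with the block), beside 26.3% and 17.0%. At 11 °C against 13 °C, 0 were higher and 5 lower, beside 17.2% and 18.2%. These counts include LOC_Os07g46315 and LOC_Os10g41760, which passed the filter only through the libraries where they were high. Of the loci that act directly beside the members, a methyltransferase and a porphyrin-binding protein were both highest at 13 °C. The methyltransferase, which takes over magnesium protoporphyrin IX from the chelatase (LOC_Os06g04150), had 32.5 and 36.3 RPKM at 11 °C, 72.3 and 90.2 RPKM at 13 °C, and 4.75 and 4.36 RPKM at 25 °C. It was 7.56-fold higher at 11 °C and 17.9-fold higher at 13 °C than at 25 °C, while OsCRD1, the next enzyme, was lower. The ratio of OsCRD1 to it was 1.46 and 1.35 at 11 °C and 2.31 and 2.41 at 13 °C, while the 25 °C libraries had 59.9 and 95.3.

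The tetrapyrrole-binding protein locus LOC_Os11g16550 carries the description that GUN4 has in Arabidopsis, where that protein binds the chelatase's porphyrins and stimulates it. It had 25.0 and 25.2 RPKM at 11 °C, 506 and 445 RPKM at 13 °C, and 179 and 151 RPKM at 25 °C. The temperatures were far apart and 13 °C was the highest. It was 6.58-fold lower at 11 °C than at 25 °C (log2 change -2.66 ± 0.21, limma adjusted p = 5.72e-05) and 2.88-fold higher at 13 °C than at 25 °C (1.52 ± 0.21, adjusted p = 0.00082). At 11 °C it was 18.9-fold lower than at 13 °C (-4.19 ± 0.21), a larger log2 change than that of any member in the same comparison. Geranylgeranyl reductase (LOC_Os02g51080), which supplies the saturated tail that YGL1 attaches, was 2.41-fold lower at 11 °C than at 25 °C (adjusted p = 0.00243).

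In the heme, bilin and siroheme branches together, 3 of 6 tested loci were higher and 2 lower at 11 °C against 25 °C. Over all tested loci, 50.0% were called in either direction. Ferrochelatase-2 (LOC_Os05g29760), which competes with the chelatase for protoporphyrin IX, was 1.85-fold higher (log2 change 0.87 ± 0.28, limma adjusted p = 0.0349). Heme oxygenase 1 (LOC_Os06g40080) and phytochromobilin:ferredoxin oxidoreductase (LOC_Os01g72090), which make the phytochrome chromophore, were 3.08-fold and 6.23-fold lower. The loci described as inactive heme oxygenase 2 (LOC_Os03g27770) and sirohydrochlorin ferrochelatase (LOC_Os02g19440) were 4.67-fold and 2.77-fold higher.

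Regulators of chlorophyll genes and leaf markers were read from the same libraries. OsGLK1 (LOC_Os06g24070), an activator of chlorophyll synthesis and light-harvesting genes, had 36.1 and 36.4 RPKM at 11 °C, 175 and 191 RPKM at 13 °C, and 420 and 360 RPKM at 25 °C. It was 10.8-fold lower at 11 °C and 2.13-fold lower at 13 °C than at 25 °C (limma adjusted p = 2.37e-05 and 0.00387). OsGLK2 did not pass in any comparison (log2 changes -0.36, -0.45 and 0.09). Of 5 leaf markers, RCA, RbcS3 and CAB1R were lower at 11 °C against 25 °C, and RbcS2 and CAB2R did not pass. At 13 °C against 25 °C, RCA and CAB2R were lower, RbcS2 and RbcS3 higher, and CAB1R did not pass. With the replicate block, CAB2R passed at 11 °C (adjusted p = 0.0135) and RbcS2 did not at 13 °C (0.0867). The 5 leaf markers summed to 6238 and 4588 RPKM at 11 °C, 17170 and 17666 RPKM at 13 °C, and 32099 and 45551 RPKM at 25 °C, and 0 of 5 were at 0 throughout. Most of the sum was RCA at 25 °C (27020 and 36630 RPKM) and RbcS2 at 11 °C (4757 and 3490 RPKM). The sum thus does not stand for the list, and RbcS2 averaged 4123 RPKM at 11 °C and 4230 RPKM at 25 °C. The part of leaf cell content in the members' changes was not tested.

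Clock genes moved with the groups as well. The morning gene OsLHY had 113 and 115 RPKM at 11 °C, 251 and 386 RPKM at 13 °C, and 1654 and 2446 RPKM at 25 °C. The evening gene OsPRR1 had 140 and 185 RPKM at 11 °C, 71.7 and 89.7 RPKM at 13 °C, and 1.36 and 1.27 RPKM at 25 °C. OsGI and OsLUX were likewise lowest at 25 °C. Several chlorophyll synthesis genes are known to cycle over the day, and since collection times are not given, temperature and clock phase cannot be told apart for any member.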

How the data were processed

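RNA of 6 shoot libraries was sequenced, and reads were aligned with TopHat2 2.0.12, per the submitters' processing notes. The authors' deposited table gives RPKM per locus and library, and locus coordinates, which are printed as they stand. The counting program, its strand setting, the gene models and the build behind them were not given in the sources used here. In all 23650 loci with upper-case identifiers each replicate 2 column is 0, and 9 of them passed the filter below; no member is among them. Library totals were recovered as the total at which low RPKM times locus span came out whole (within 0.02) most often. This held for 32.0% to 35.9% of low loci, against 2.01% to 2.36% at a total 5% larger. Read counts of members were worked back from RPKM, these totals and the locus span, taken as the transcript length. They are given for OsDVR and OsPORA, where they came out whole (within 0.05) in all 6 libraries.

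The limma package (3.58.1, R 4.3.3) was run on log2(RPKM + 1), with all 6 libraries in 1 model and a mean-variance trend. A locus entered if 2 or more libraries reached an RPKM of 1, and p-values were adjusted over all 19438 such loci (Benjamini-Hochberg). The procedure was tested on simulated data with independent libraries and few changed loci. These data differ in both respects, so that test does not measure the error of the fit here. Deviations of same-numbered replicates from their group means correlated across loci at 0.713 (11 and 13 °C), 0.61 (11 and 25 °C) and 0.669 (13 and 25 °C). The labels give no meaning to the number; on these correlations a fit with the replicate number as a block is given where it changes a call or count stated in the text. A fold is the ratio of 2 mean RPKM values, while log2 changes, made with the pseudocount, understate the change of low genes. No tested locus had equal nonzero values in both replicates.

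Members and lists were chosen with earlier results of these data known. Named are all members, pathway loci matched by words in their descriptions and called in at least 1 comparison, 2 GLK regulators, the marker genes, and the 3 described loci with the highest Pearson r to each member. Overlapping or uncalled copies of a member's enzyme, the glutamyl-tRNA reductase-binding protein and 1 translocon locus were named after their values were seen. None of the members' protein accessions was found in the RefSeq table of assembly ASM3414082v1, so names come from the listed symbols and the descriptions, and no sequence was analysed here. Alternatives were a pseudocount of 0.1, no filter, trimmed-mean and quantile scaling, the block, no trend, and each library left out.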

Additional observations from a re-analysis of the deposited data

How the results depend on the processing

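Of 324 member changes recomputed under 12 alternatives, 295 kept direction and side of the threshold, 19 were weaker, 6 stronger and 4 reversed. That tally counts OsPORA in its comparisons with 13 °C, which are no test. The block, the fit without trend and the fit without filter leave every log2 change as it was. So does leaving out a library of a temperature outside the comparison. In those cases the direction could not change, so the tally overstates how far direction was tried. The reversals concerned 2 uncalled changes, and their cause was not tested. OsDVR at 13 against 25 °C ranged from -0.85 to 0.35 with a library left out, and was 0.05 without replicate 1 at 13 °C. OsPORB at 11 against 13 °C ranged from -0.36 to 0.16, and was 0.12 without replicate 1 at 11 °C. At 11 against 25 °C all 9 calls held in every alternative but 1, OsChlD without replicate 2 at 11 °C.

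With a library left out, lower members numbered 3 to 6 at 11 against 13 °C (6 with all libraries) and 1 to 2 at 13 against 25 °C (2 with all libraries; 1 with no filter). Of the other pathway loci, 6 to 12 were then higher at 11 against 25 °C, 5 to 12 higher at 13 against 25 °C, 0 to 2 higher at 11 against 13 °C and 3 to 7 lower at 11 against 13 °C. Pathway loci lower at 13 against 25 °C numbered 12 with trimmed-mean scaling, 10 with quantile scaling and 12 with the replicate block, against 6. Those higher at 11 against 13 °C numbered 5, 5 and 6 under the same alternatives, against 3. The replicate block changed no member call but those of OsCAO1, OsChlD and YGL1 given above. Leaving out the filter cost OsDVR its call at 11 against 13 °C and OsCRD1 its call at 13 against 25 °C. Trimmed-mean scaling moved the median change of all loci from 0.13 to -0.01 at 11 °C and from 0.12 to -0.03 at 13 °C, against 25 °C, and the share of calls that were higher from 57.3% to 50.1% and from 60.8% to 50.9%. No member changed sign under either scaling; lower members numbered 3 at 13 against 25 °C with trimmed-mean scaling, and 7 at 11 against 13 °C with either scaling. A pseudocount of 0.1 gave OsPORA 2.30 at 11 against 25 °C, against 0.81. With 2 libraries a temperature, leaving out 1 leaves an arm whose lone library is assumed to vary like the others.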

Other observations

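The words used for the pathway also found 6 loci described as protochlorophyllide-dependent translocon component 52, and 5 were tested. The description names a part of the plastid import machinery, and whether these loci act in chlorophyll synthesis was not tested. LOC_Os03g59152 was listed at 0 in both 25 °C libraries and had 3.08 and 2.73 RPKM at 11 °C and 1.55 and 1.68 RPKM at 13 °C. It passed the filter through its low-temperature libraries. LOC_Os03g59090, its most abundant relative, had 174 and 263 RPKM at 11 °C, 132 and 188 RPKM at 13 °C, and 194 and 422 RPKM at 25 °C, and did not pass (limma adjusted p = 0.414 at 11 °C and 0.12 at 13 °C against 25 °C, the second 0.00756 with the replicate block). LOC_Os03g59100 and LOC_Os03g59120 were 2.08-fold and 3.03-fold lower at 13 °C than at 25 °C. LOC_Os03g59120 passed the filter only with its 25 °C libraries. Without the 6 loci, 11 of 28 tested pathway loci were higher and 8 lower at 11 °C against 25 °C (13 and 9 with the replicate block), beside 28.6% and 21.4% of all tested loci. At 13 °C against 25 °C, 10 were then higher and 4 lower (15 and 8 with the block), beside 26.3% and 17.0%. At 11 °C against 13 °C, 2 were higher and 7 lower (5 and 10 with the block), beside 17.2% and 18.2%.

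LOC_Os07g46315, described like OsChlH as the large chelatase subunit, had 1.09 and 0.658 RPKM at 11 °C, 0 and 0.494 RPKM at 13 °C, and 2.90 and 1.85 RPKM at 25 °C, far below OsChlH in each library. LOC_Os07g46315 passed the filter only with its 25 °C libraries. The uroporphyrinogen decarboxylase loci differed: LOC_Os03g22060 was 5.17-fold and LOC_Os01g43390 1.74-fold higher, and LOC_Os03g21900 1.71-fold lower, at 11 °C than at 25 °C (limma adjusted p = 0.00879, 0.024 and 0.0238).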
